A study of Mus musculus with 2 samples.

Results

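The genes described here are the actin isoforms Actb, Actg1, Acta1, Acta2, Actc1 and Actg2 and the contractile genes Tagln, Cnn1, Myl9 and Tpm1. They were chosen by name: every non-control probe that the array files assign to 1 of these 10 genes was taken, which gave 19 of 39429 probes. The rule for taking probes used no measured value, but the genes were chosen with earlier results of these data known. Per the labels, all RNA came from mouse ZHBTc4 embryonic stem (ES) cells, in which the endogenous Oct4 gene is disrupted and Oct4 is made by a transgene that is shut off by doxycycline, and all clones had received doxycycline. The Nr5a2-EGFP clone (#26, stably transfected with pCAG-IP/Nr5a2-EGFP) was labelled with Cy5 on both of 2 arrays. The Oct4-EGFP clone (#9, pCAG-IP/Oct4-EGFP) was its Cy3 partner on 1 array, called the Oct4 array here, and the EGFP clone (#2-5, pCAG-IP/EGFP) on the other, the EGFP array. The medium held 15% serum and 1000 IU/ml LIF, and cells grew on gelatin with no feeders.

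Each construct was carried by 1 monoclonal clone, and the Nr5a2-EGFP clone was hybridised once with each of the others, with no dye swap. In those direct comparisons the construct, the clone and the dye cannot be told apart. The Oct4-EGFP and EGFP clones were both in Cy3 and on different arrays, so their comparison is indirect. No test could be run between clones. Genes are described by size alone: a log2 ratio of 1 or more is called at least 2-fold higher, and one of -1 or less at least 2-fold lower. The repeated measurement was the Nr5a2-EGFP clone itself, read in Cy5 on both arrays. In these bulk samples, fewer cells of a type and less RNA per cell cannot be told apart.

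Actins are the subunits of the microfilaments. Actb and Actg1 encode the cytoplasmic isoforms found in nearly every cell, Acta1 and Actc1 the skeletal and cardiac muscle isoforms, and Acta2 and Actg2 the vascular and enteric smooth muscle isoforms. Tagln (transgelin) and Cnn1 (calponin) encode actin-binding proteins of smooth muscle, Myl9 a regulatory light chain of smooth muscle and nonmuscle myosin II, and Tpm1 a tropomyosin that lies along the filament and is made in many splice forms. Many of these genes are known targets of serum response factor (SRF) and its coactivators, the myocardin-related factors, which are released to the nucleus as monomeric actin is used up. Actb is also widely used as a reference gene, on the premise that its level holds steady between samples.

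Several members were read by more than 1 probe, and which transcript a probe reads bears on the results for Tpm1, Actb and Actg1, so those probes are shown. The 5 probes of Tpm1 (chromosome 9, minus strand, mm9) are numbered by brightness. Probe 1 (66875796 to 66875855) and probe 3 (66875782 to 66875841) share 46 bases and are assigned by the files to NM_001164248, NM_001164251 and NM_001164254. Probe 2 (66872131 to 66872190) is assigned to NM_001164255 and NM_001164256. Probe 4 (66871166 to 66871225) is assigned to NM_001164249, NM_001164250, NM_001164252 and NM_024427, and probe 5 (66880274 to 66880333) to NM_001164250, NM_001164251 and NM_001164253. Of probes 1 to 3 a stretch of 30 bases is given, with the polyadenylation signal letters AATAAA or ATTAAA in capitals where it holds them. Probes 4 and 5 are given whole.
Tpm1 probe 1: ccttagggccaggcacagactgctttctat
Tpm1 probe 2: ttgtatagcttcATTAAAtcctcaataacc
Tpm1 probe 3: tcgcccagtgtaaAATAAAcactgtacgct
Tpm1 probe 4: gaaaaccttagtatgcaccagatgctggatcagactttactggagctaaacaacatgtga
Tpm1 probe 5: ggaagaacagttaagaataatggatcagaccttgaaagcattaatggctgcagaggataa

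The probes named Actb lie at different places. Probe 1 (NM_007393) is on chromosome 5, minus strand, at 143665422 to 143665481. Probe 2 carries the name Actb but is assigned to BC016624 and placed on chromosome X, plus strand, at 148868300 to 148868359. A stretch of 30 bases of each is given, again with the signal letters in capitals. Across all 39429 probes, 16.7% hold AATAAA or ATTAAA on the probe's own strand, against 5 of the 19 member probes.
Actb probe 1: tctaggcggactgttactgagctgcgtttt
Actb probe 2: cctcttgagcacAATAAAtggatcagtggc

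Of the 5 probes of Actg1 (NM_009609, chromosome 11, minus strand), probes 3, 4 and 5 overlap. The files place them at 120208409 to 120208468, 120208361 to 120208420 and 120208371 to 120208430. Where they overlap by position they are not always the same sequence. Probes 4 and 5 share 50 positions and differ at 4 of them, A9G, G23A, G25T and C40T, counted from 1 at the 5′ end of probe 4 with its base first. Probes 3 and 5 share 22 positions with 0 differences. The capitals below mark the 4 differing bases.
Actg1 probe 3: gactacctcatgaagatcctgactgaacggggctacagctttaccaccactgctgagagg
Actg1 probe 4: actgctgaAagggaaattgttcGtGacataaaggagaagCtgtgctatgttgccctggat
Actg1 probe 5: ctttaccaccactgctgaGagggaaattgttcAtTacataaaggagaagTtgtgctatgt

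Probe 1 of Actg1 lies at 120206997 to 120207056. Probe 2 has 60 bases, of which the files place only 18, at 120206967 to 120206984, and it shares a run of 20 bases with a probe that the files name NAP111417-1. Acta1 (NM_009606) is read on chromosome 8 at 126416197 to 126416256, and Acta2 (NM_007392) on chromosome 19 at 34316060 to 34316119. The Actc1 probe (NM_009608) lies on chromosome 2 at 113873064 to 113873123, and that of Actg2 (NM_009610) on chromosome 6 at 83462904 to 83462963. Tagln (NM_011526, chromosome 9, 45738097 to 45738156), Cnn1 (NM_009922, chromosome 9, 21913058 to 21913117) and Myl9 (NM_172118, chromosome 2, 156607301 to 156607360) have 1 probe each. All these positions are mm9, as the files give them. Exon and intron annotation of that build was not used here.

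Levels below are normalized intensities in arbitrary units, after background correction and scaling of the channels, and they are compared only within a probe. Where levels are summed over a marker list, the sum takes the same probes in every channel, weighs bright probes most and is a description only. Of the 19 probes, 18 were well above background in all 4 channels. The exception was Actc1, the cardiac muscle actin, at 96.9 and 85.9 in Nr5a2-EGFP cells, 85.5 in Oct4-EGFP cells and 76.0 in EGFP cells, not well above background in any channel, so no fold is given for it. The Oct4-EGFP level was the lowest of the 4 channels in 9 of the 18 measured probes, where 33.6% of all probes had that order, and the highest in 5, where 31.4% of all probes did. The EGFP level was the highest in 5 (30.8% of all probes) and the lowest in 5 (31.6%).

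**Figure D1:**
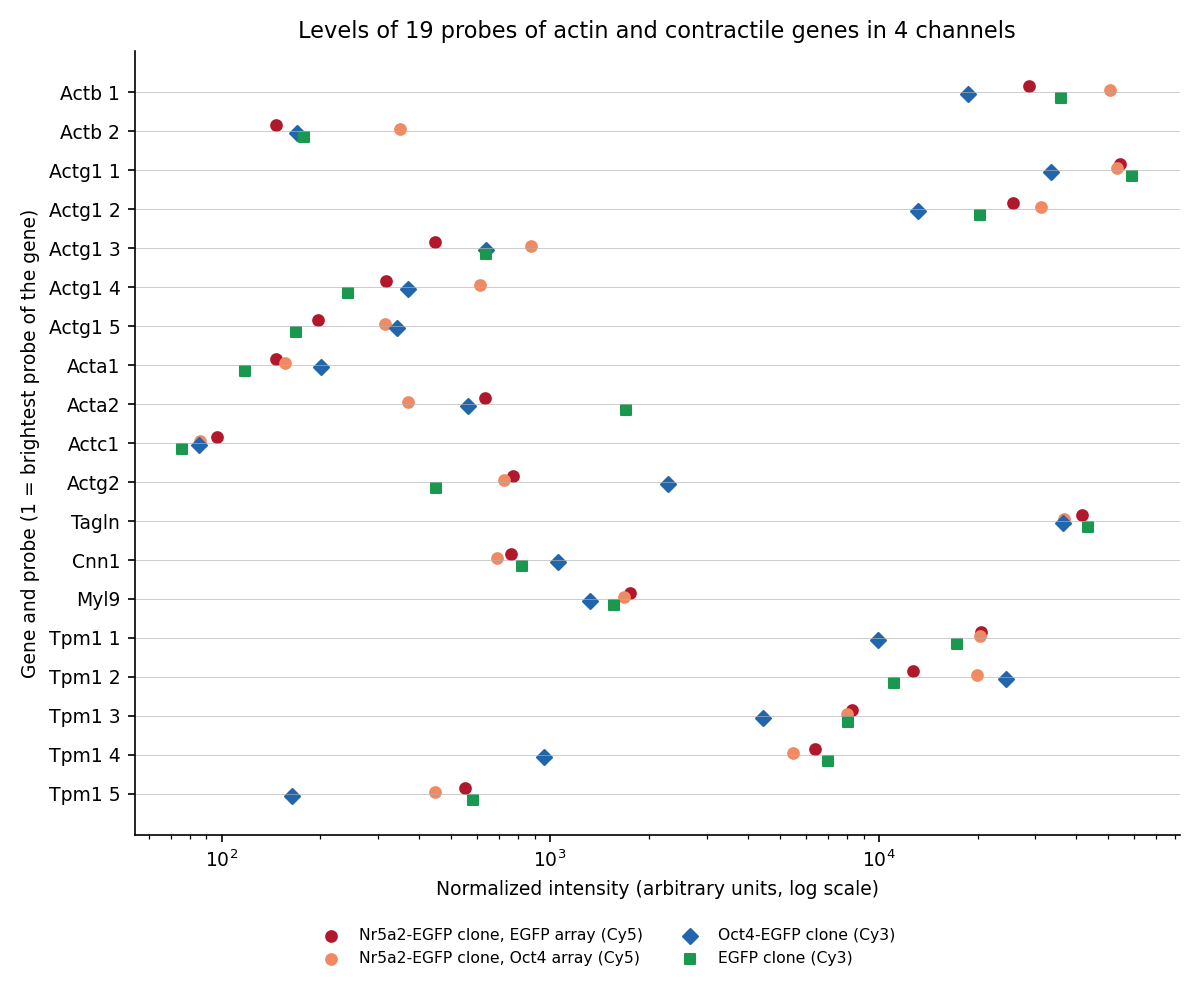
Normalized intensity (log axis, arbitrary units) of the 19 probes in the 4 channels, with probes of a gene numbered from the brightest. Circles are the 2 Nr5a2-EGFP readings in Cy5, diamonds the Oct4-EGFP clone and squares the EGFP clone; levels are to be compared along a row only. The diamond lies left of all other symbols in rows such as Actb 1 (18668) and Tpm1 4 (960), and far to the right in that of Actg2 (2284).

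Actb, the gene for cytoplasmic beta-actin, read above the Oct4-EGFP clone by at least 2-fold in the Nr5a2-EGFP clone, and within 2-fold of the EGFP clone. Probe 1 had a level of 28587 in Nr5a2-EGFP cells on the EGFP array and 50539 on the Oct4 array, 18668 in Oct4-EGFP cells and 35918 in EGFP cells. The Oct4-EGFP level lay below both readings of the Nr5a2-EGFP clone, and the EGFP level lay between them. The log2 ratio was 1.44 (2.71-fold) over Oct4-EGFP and -0.33 over EGFP. These readings of 1 clone were 0.82 apart on the log2 scale (-0.82, EGFP array minus Oct4 array), where the SD of that difference over all probes was 0.30. With the reading of the other array in its place, the ratio over Oct4-EGFP was 0.61 and that over EGFP 0.49. On the Oct4 array, 14 of the spot's 63 pixels were saturated in Cy5, although the spot was not flagged as saturated, and on the EGFP array 0 were.

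Probe 2 of Actb, the one placed on chromosome X, was dim. Its levels were 147 and 349 in Nr5a2-EGFP cells, 170 in Oct4-EGFP cells and 178 in EGFP cells. Its log2 ratios of 1.04 over Oct4-EGFP and -0.27 over EGFP had the same signs as those of probe 1. The Nr5a2-EGFP readings were 1.25 apart (-1.25), the sole member probe of 18 at least 2-fold apart between readings, against 1.80% of all 31189 probes. The Oct4-EGFP and EGFP levels both lay between those readings.

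Actg1, the gene for cytoplasmic gamma-actin, gave different answers at its bright and dim probes. Probe 1 was saturated in Cy5 on both arrays (62 of 62 pixels on the EGFP array, 64 of 64 on the Oct4 array), with levels of 54205 and 53306 in Nr5a2-EGFP cells, 33471 in Oct4-EGFP cells and 59125 in EGFP cells. The Nr5a2-EGFP clone was thus higher than the Oct4-EGFP clone by at least 1.59-fold. Its Cy3 channels were not saturated and put the Oct4-EGFP clone 0.82 below the EGFP clone (-0.82 on the log2 scale). Probe 2, with no flag for saturation, had levels of 25674 and 31262 in Nr5a2-EGFP cells, 13186 in Oct4-EGFP cells and 20386 in EGFP cells. Its log2 ratio was 1.25 over Oct4-EGFP and 0.33 over EGFP, and the Oct4-EGFP level was the lowest of the 4. The NAP111417-1 probe that shares 20 bases with it gave 1.40 and 0.52.

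The 3 overlapping probes of Actg1 did not share a direction. Over Oct4-EGFP their log2 ratios were 0.46 (probe 3), 0.73 (probe 4) and -0.12 (probe 5), and over EGFP -0.51, 0.39 and 0.21. All 3 read lower in the Nr5a2-EGFP clone on the EGFP array than on the Oct4 array, with differences of -0.97, -0.95 and -0.69. For probe 3, levels were 446 and 876 in the Nr5a2-EGFP clone, with 638 in both the Oct4-EGFP and the EGFP clone. Probe 5, which differs from probe 4 at the 4 capital letters above, had its highest level in the Oct4-EGFP clone (342) and its lowest in the EGFP clone (169), and probe 4 had 369 and 243 there. Across its 5 probes the ratio of Actg1 over Oct4-EGFP spanned 1.36 on the log2 scale, a span that 9.7% of 4907 genes with several probes reached. Those genes were not matched to Actg1 for number of probes, and a span tends to widen with more probes.

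The muscle actins were read by 1 probe each. Acta2, the smooth muscle alpha-actin gene, was the member at least 2-fold apart in the comparison with EGFP. Its levels were 634 and 370 in Nr5a2-EGFP cells, 561 in Oct4-EGFP cells and 1706 in EGFP cells, so the EGFP clone stood above all other channels. The log2 ratio was -1.43 (2.69-fold lower) over EGFP and -0.60 over Oct4-EGFP. The probe was printed 10 times, which gives an error within the slide: the log2 ratio over EGFP ran between -1.56 and -1.29 with a median of -1.44 (SD 0.077, n = 9 spots), and that over Oct4-EGFP between -0.69 and -0.49 with a median of -0.61 (SD 0.074, n = 7 spots). The Nr5a2-EGFP readings were 0.78 apart, several times those SDs. With the other reading, the ratio over EGFP was -2.20 and that over Oct4-EGFP 0.18.

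Actg2, the enteric smooth muscle actin gene, had another order of clones. Levels were 772 and 722 in Nr5a2-EGFP cells, 2284 in Oct4-EGFP cells and 449 in EGFP cells, so the Oct4-EGFP clone was highest and the EGFP clone lowest. The log2 ratio was -1.66 (3.16-fold lower) over Oct4-EGFP and 0.78 over EGFP. The readings were 0.10 apart. Acta1, the skeletal muscle actin gene, was dim, at 147 and 156 in Nr5a2-EGFP cells, 201 in Oct4-EGFP cells and 118 in EGFP cells. Its log2 ratios were -0.36 over Oct4-EGFP and 0.31 over EGFP, within 2-fold in both.

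Tagln, Cnn1 and Myl9 read within 2-fold in all 3 comparisons. Tagln had levels of 41553 and 36553 in Nr5a2-EGFP cells, 36420 in Oct4-EGFP cells and 43472 in EGFP cells, with ratios of 0.01 over Oct4-EGFP and -0.07 over EGFP. Its Cy3 channels, the farthest apart of the 4, differed by 0.26 (-0.26, Oct4-EGFP minus EGFP) and its Nr5a2-EGFP readings by 0.18. Cnn1 had 762 and 688 in Nr5a2-EGFP cells, 1060 in Oct4-EGFP cells and 824 in EGFP cells, and ratios of -0.62 and -0.11. Its Oct4-EGFP level was the highest of the 4. Myl9 had 1756 and 1681 in Nr5a2-EGFP cells, 1324 in Oct4-EGFP cells and 1563 in EGFP cells, with ratios of 0.34 and 0.17, and its Oct4-EGFP level was the lowest.

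Counted by gene at the brightest probe, 1 of the 9 measured members was at least 2-fold apart between the Nr5a2-EGFP and EGFP clones (Acta2, lower), beside 8.41% of all genes (3.34% higher, 5.07% lower). Between the Nr5a2-EGFP and Oct4-EGFP clones it was 3 of 9, Actb and Tpm1 higher and Actg2 lower, beside 11.7% of all genes (4.54% higher, 7.11% lower). The member median was -0.07 in the first and 0.01 in the second, beside medians over all genes of 0.03 and 0.01. Both comparisons share the Nr5a2-EGFP clone. Counted by probe, of which several share a gene, 1 of 18 and 7 of 18 were at least 2-fold apart, against 8.56% and 11.9% of all probes.

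**Figure D2:**
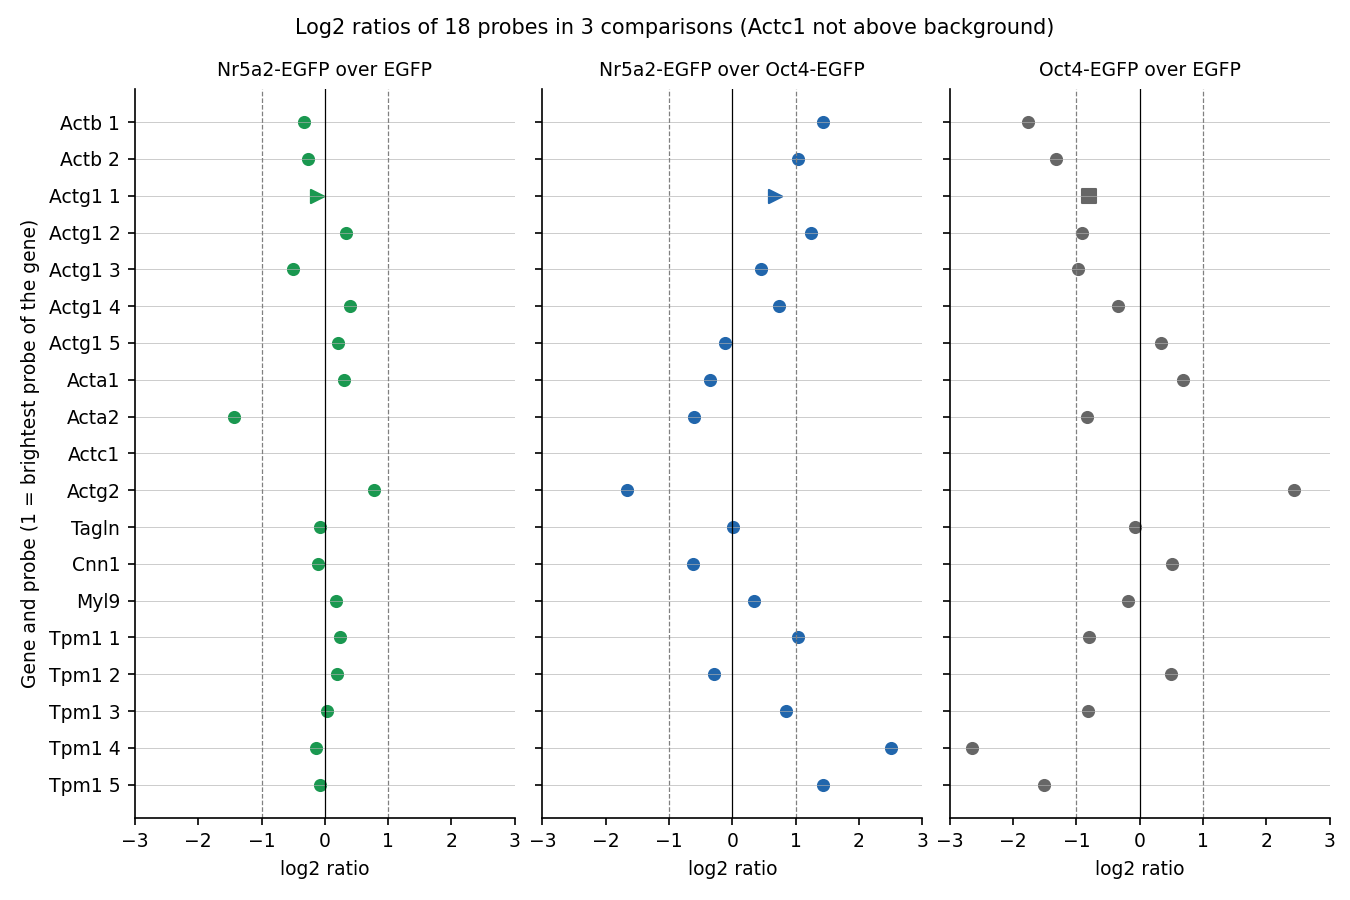
Log2 ratio of each of 18 probes in the 3 comparisons, with dashed lines at -1 and 1 and probes of a gene numbered from the brightest. The triangles for Actg1 1 are lower bounds because the Nr5a2-EGFP channel was saturated, and the square is the difference of these bounds. Acta2 (-1.43) is the sole point past a dashed line in the first panel, and Tpm1 4 (2.51) and Actg2 (-1.66) lie farthest out in the second.

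Oct4-EGFP was set against EGFP indirectly, by subtracting the log2 ratio on the Oct4 array from that on the EGFP array, into which any gap between the Nr5a2-EGFP readings enters. The levels of the Cy3 channels give a second value without it. Of the 9 measured members, Actg2 was higher in the Oct4-EGFP clone by at least 2-fold (2.44, or 5.44-fold, and 2.35 from the Cy3 levels) and Actb at least 2-fold lower (-1.77, and -0.94 from the Cy3 levels), beside 12.2% of all genes (6.40% higher, 5.78% lower). By the Cy3 levels the 2 genes past the threshold were Actg2 and Acta2, with Acta2 at -0.83 indirectly and -1.60 from Cy3. By either route Tagln (-0.07 and -0.26), Cnn1 (0.51 and 0.36), Myl9 (-0.18 and -0.24) and Acta1 (0.68 and 0.76) stayed within 2-fold. The member median was -0.18, beside 0.02 over all genes. Counted by probe, 5 of 18 were at least 2-fold apart, against 12.5% of all probes.

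The probes of Tpm1, which are assigned to different transcripts, differed among themselves against the Oct4-EGFP clone but little against the EGFP clone. Over EGFP the 5 log2 ratios lay between -0.14 and 0.24, a span of 0.38 that is close to the median span of 0.42 over 4922 genes with several probes. Over Oct4-EGFP they lay between -0.29 and 2.51. That span of 2.80 was reached by 49 of 4907 genes (0.999%). The span was 3.14 for Oct4-EGFP over EGFP, reached by 34 of 5082 genes (0.669%). The genes with several probes were not matched to Tpm1 for number of probes. A span tends to widen with more probes, so the median span and these shares are not like for like.

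Probe 4 of Tpm1 had the widest gap between clones. Its levels were 6383 and 5471 in Nr5a2-EGFP cells, 960 in Oct4-EGFP cells and 7011 in EGFP cells, and the log2 ratio was 2.51 (5.70-fold) over Oct4-EGFP and -0.14 over EGFP. The Oct4-EGFP clone was far below the other channels, and the Nr5a2-EGFP readings were 0.22 apart. Probe 5, which shares NM_001164250 with probe 4, had 551 and 447 in Nr5a2-EGFP cells, 164 in Oct4-EGFP cells and 581 in EGFP cells, with ratios of 1.44 and -0.08. Probe 1 had 20495 and 20401 in Nr5a2-EGFP cells, 9923 in Oct4-EGFP cells and 17359 in EGFP cells, with ratios of 1.04 and 0.24. Probe 3, which overlaps probe 1, had 8313 and 8026 in Nr5a2-EGFP cells, 4449 in Oct4-EGFP cells and 8065 in EGFP cells, with ratios of 0.85 and 0.04.

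Probe 2, assigned to transcripts that no other Tpm1 probe is assigned to, went the other way. Its levels were 12748 and 19886 in Nr5a2-EGFP cells, 24328 in Oct4-EGFP cells and 11114 in EGFP cells. The Oct4-EGFP clone was the highest channel, and the ratio over Oct4-EGFP was -0.29. Its readings of the Nr5a2-EGFP clone were 0.64 apart (-0.64), while those of the other 4 Tpm1 probes differed by 0.01 to 0.30. From the Cy3 levels, Oct4-EGFP over EGFP was 1.13 at probe 2, against -2.87 at probe 4, -1.82 at probe 5, -0.81 at probe 1 and -0.86 at probe 3.

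**Figure D3:**
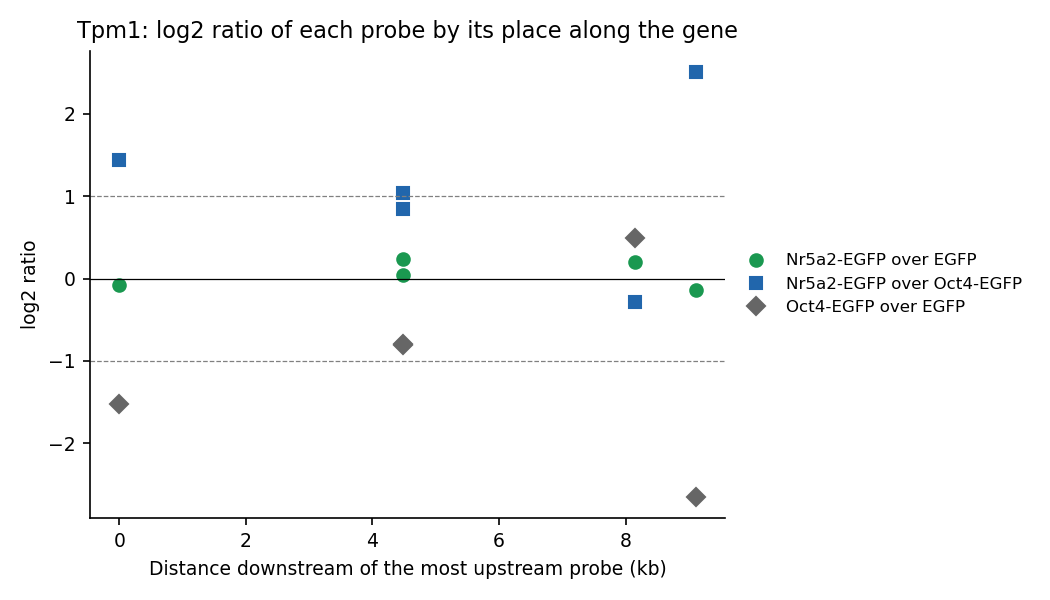
Log2 ratio (y axis) of the 5 Tpm1 probes by distance in kb downstream of the most upstream probe (x axis), in the 3 comparisons, with dashed lines at -1 and 1. Probe 5 is at 0 kb, probes 1 and 3 at 4.48 and 4.49 kb, probe 2 at 8.14 kb and probe 4 at 9.11 kb. The circles, Nr5a2-EGFP over EGFP, stay near 0 along the gene, while the squares, Nr5a2-EGFP over Oct4-EGFP, drop to -0.29 at probe 2 and reach 2.51 at probe 4.

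Whether Actb holds one level across these clones was described against 16 other common reference genes. Of these, 3 (Ppia, Ywhaz and Polr2a) had a saturated channel, so their ratios are bounds, and the medians below take them at the bound. In the comparison with EGFP, Actb had -0.33. The others ran between -0.54 (Ppia, a lower bound) and 0.97 (Rpl13a) with a median of 0.25. Of the 13 with no saturated channel, 0 were at least 2-fold apart, beside 8.41% of all genes. Against Oct4-EGFP, Actb had 1.44. Of the 13, 1 was at least 2-fold apart, B2m (1.50), a component of MHC class I, beside 11.7% of all genes. With so few genes, these counts do not set the list apart from all genes. The other 15 ran between -0.30 (Polr2a, a lower bound) and 1.00 (Tfrc, just under the threshold). Other probes of Tfrc went down to -0.82. The median of the 16 was 0.36. Actb had -1.77 for Oct4-EGFP over EGFP, B2m had -1.92, the highest was Gapdh (0.58), and the median was -0.36. With the other Nr5a2-EGFP reading, Actb had 0.61 over Oct4-EGFP, below genes such as Eef1a1 (1.47) and Rpl13a (1.26), while B2m had 1.62. From the Cy3 levels, Actb had -0.94 for Oct4-EGFP over EGFP, within 2-fold, and B2m -2.05.

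Among these genes, Gapdh, an enzyme of glycolysis, had levels of 45079 and 36900 in Nr5a2-EGFP cells, 36692 in Oct4-EGFP cells and 29925 in EGFP cells, and ratios of 0.01 over Oct4-EGFP and 0.59 over EGFP. Hprt (0.28 and -0.10), Tbp (0.44 and 0.09) and Pgk1 (0.39 and 0.28) were within 0.5 in both. So was Ywhaz (0.22 and 0.41), which, like Ppia (0.34 and -0.54) and Polr2a (-0.30 and -0.41), was saturated in Cy5 on both arrays, so that the ratios of these 3 are lower bounds. Rplp0 (-0.03 and 0.48), Eef1a1 (0.31 and 0.72), Rpl13a (0.45 and 0.97), Sdha (0.28 and -0.53), Gusb (0.79 and 0.34), Tfrc (1.00 and 0.22) and B2m (1.50 and -0.42) were also on the list. The Nr5a2-EGFP readings were 0.69 apart for Rplp0, 0.81 for Rpl13a and 1.15 for Eef1a1, and 0.12 for B2m.

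Scaling every ratio so that Actb was equal between clones moved the counts over all genes. Against Oct4-EGFP, 68 of 26095 genes were then higher by at least 2-fold and 21080 lower (81.0%, against 11.7% before), with a median of -1.43. For Oct4-EGFP over EGFP, 24153 were higher and 53 lower of 26701 (90.7%), with a median of 1.78. Against EGFP the effect was smaller, 2496 higher and 583 lower of 25998 (11.8%). These counts follow the Actb ratio, and that ratio moved with the array on which Nr5a2-EGFP cells were read. With the other reading, an alternative chosen after seeing the data, scaling to Actb left 28.6% of genes at least 2-fold apart against Oct4-EGFP and 21.2% against EGFP, with the median on the other side of 0 against EGFP (-0.49, and 0.36 above). From the Cy3 levels the share for Oct4-EGFP over EGFP was 47.3%. Scaling to Gapdh at its brightest probe gave 22.1%, 11.7% and 22.3% in the comparisons with EGFP, with Oct4-EGFP, and of Oct4-EGFP over EGFP. These shares depend on the probe taken. Over the 7 Gapdh probes the ratios lay between 0.06 and 0.83, -0.39 and 0.21, and 0.37 and 0.75 in the same order. Scaled to Actb, Tagln, at 0.01 over Oct4-EGFP without that scaling, had -1.43, and Actg2 -3.10.

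**Figure D4:**
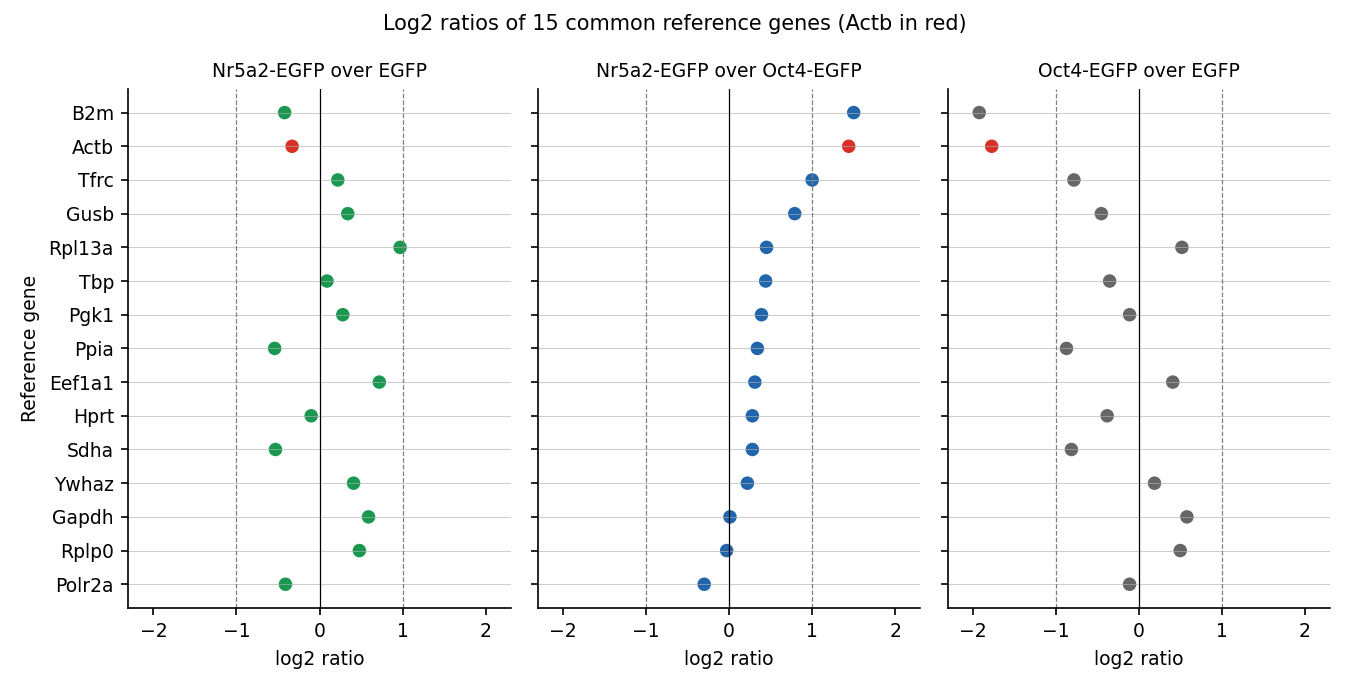
Log2 ratios of 15 of the 17 common reference genes in the 3 comparisons, ordered by the ratio of Nr5a2-EGFP over Oct4-EGFP, with dashed lines at -1 and 1 and Actb in red. Actb lies among the other genes in the first panel (-0.33) and past a dashed line with B2m in the second (1.44 and 1.50) and the third (-1.77 and -1.92). Not drawn are the other Nr5a2-EGFP reading over Oct4-EGFP (Actb 0.61, B2m 1.62) and the Cy3 levels (Actb -0.94, B2m -2.05).

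Other genes of the contractile apparatus were taken from a list of 22 paralogs and partners, all measured. Against EGFP, 0 were at least 2-fold higher and 1 lower, the nonmuscle myosin heavy chain gene Myh14 (-1.07, or lower, since its EGFP channel was saturated, and 0.75 at its other probe), with a list median of -0.09. Against Oct4-EGFP, 3 were higher and 1 lower, with a median of 0.28. The higher ones were the nonmuscle calponin gene Cnn3 (1.35, other probe 1.70), the alpha-actinin gene Actn4 (1.16) and Myh9, a nonmuscle myosin heavy chain gene whose Nr5a2-EGFP channel was saturated. The lower one was Tagln3 (-1.42), a neuronal relative of Tagln. The shares at least 2-fold apart were 4.55% and 18.2%, beside 8.41% and 11.7% of all genes.

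The broadly expressed relatives of the members mostly read within 2-fold. Tagln2 had 0.26 over Oct4-EGFP and -0.82 over EGFP, Cnn2 -0.39 and -0.21, and the myosin light chain gene Myl6 0.40 and 0.89. Of the other tropomyosins, Tpm2 had -0.13 and -0.13, Tpm3 0.97 and 0.66, and Tpm4 0.44 and 0.26. For Oct4-EGFP over EGFP, 1 of 22 was higher (Tagln3, 1.38) and 3 lower, Tagln2 (-1.08, other probe -0.13), Actn4 (-1.14) and Myh9 (-1.31 from the unsaturated Cy3 levels). Together they were 18.2% of the list, beside 12.2% of all genes. The intermediate filament gene Vim had -0.87 over EGFP and -0.84 over Oct4-EGFP.

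Of 20 genes of the SRF pathway, 1 was higher and 1 lower against EGFP, 2 and 3 against Oct4-EGFP, and 3 and 2 for Oct4-EGFP over EGFP, with medians of 0.23, 0.33 and -0.17. Those are 10.0%, 25.0% and 25.0% of the list, beside 8.41%, 11.7% and 12.2% of all genes. Srf itself had levels of 8834 and 8867 in Nr5a2-EGFP cells, 10102 in Oct4-EGFP cells and 4032 in EGFP cells. Its ratio was 1.13 over EGFP and -0.19 over Oct4-EGFP, but its other probe gave -0.27 and -0.32. The immediate early gene Fos was lower in the Nr5a2-EGFP clone in both (-1.02 over EGFP, -1.16 over Oct4-EGFP). Csrp2, a LIM protein gene of smooth muscle, had -2.10 over Oct4-EGFP and -0.85 over EGFP, and Ccn2 (connective tissue growth factor) -1.26 and 0.35. Amotl2, an angiomotin family gene, had 1.30 and 0.34, and Ccn1, named after its value was seen, 1.10 and 0.60. The higher ones for Oct4-EGFP over EGFP were Ccn2 (1.61), Srf (1.32, and 0.05 at its other probe) and Csrp2 (1.25), and Mrtfb (-1.04, and up to 0.23 at its other probes) and Filip1l (-1.13), also named after their values were seen, were lower. The Filip1l level in the Oct4-EGFP clone (106) was not well above background.

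A list of 50 genes of actin filament assembly, 49 of them measured, had 5 higher and 4 lower against EGFP (median 0.04), 4 and 2 against Oct4-EGFP (0.21), and 2 and 7 for Oct4-EGFP over EGFP (-0.08). Those are 18.4%, 12.2% and 18.4% of the list, beside the same shares of all genes as above. Lcp1, the gene for the actin-bundling plastin of blood cells, had 4.25 over Oct4-EGFP and 0.97 at its other probe. Coro1a, a coronin gene of blood cells, had -2.81 over Oct4-EGFP and -0.93 over EGFP, with readings 0.98 apart. Capg, the gene for a capping protein, had -1.43 over EGFP and -2.23 for Oct4-EGFP over EGFP, with readings 0.86 apart, and Coro1b 1.44 over EGFP. Enah, whose product promotes filament elongation, had 3.12 over EGFP and 0.92 at its other probe, and Arpc5, an Arp2/3 subunit gene, 1.74 over Oct4-EGFP and 0.73 at its other probe.

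Marker genes of muscle and fibroblasts were read for the same clones, since Acta2, Tagln and Cnn1 are used as markers of those cells. Of 10 smooth muscle markers, Myocd and Mylk were not well above background in any channel. Desmin (Des) was at least 2-fold lower in the Nr5a2-EGFP clone than in the EGFP clone (-1.16, and -0.26 over Oct4-EGFP). It was the 1 of 8 measured markers at least 2-fold apart against EGFP, beside 8.41% of all genes. Against Oct4-EGFP, 0 of 6 were (11.7% of all genes), and for Oct4-EGFP over EGFP 1 of 8 (12.2%). Casq2 had 1.05 for Oct4-EGFP over EGFP and -0.94 over Oct4-EGFP, and the others measured stayed within 2-fold, Myh11 (0.57 over EGFP, 0.41 over Oct4-EGFP) and Smtn (0.42 and -0.21) among them. Their summed levels were 13624 and 13091 in Nr5a2-EGFP cells, 14596 in Oct4-EGFP cells and 21578 in EGFP cells, of which Des alone had 15016 in the EGFP clone. The part of such cells in the Acta2 ratio was not tested.

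Of 15 striated muscle markers, 0 were higher and 3 lower of 13 measured against EGFP, the cardiac genes Myh6 (-1.63, other probe -0.12), Tnnt2 (-1.43) and Myh7 (-1.19), where 5.07% of all genes were lower. Against Oct4-EGFP, 0 were higher and 4 lower of 14 (7.11% of all genes were lower), led by the light chain gene Myl4 (-2.01), the embryonic myosin gene Myh3 (-1.97, other probe -0.96) and Mylpf (-1.75). Ckm was not well above background anywhere, and the summed levels were 88935 and 87950 in Nr5a2-EGFP cells, 83572 in Oct4-EGFP cells and 82884 in EGFP cells. The probes of 2 genes named after their values were seen made up most of each sum, Myod1 (50096 and 50928, 45421, 36233 in the same order) and Tnnt1 (26989 and 24512, 14517, 29614). Of 12 fibroblast markers, Lum and Postn were not well above background in any channel. Fbln2 was lower in the Nr5a2-EGFP clone (-3.43 over EGFP, -1.90 over Oct4-EGFP), and Pdgfrb had -1.28 over Oct4-EGFP and 0.10 over EGFP. Of 10 measured fibroblast markers, 1 was at least 2-fold apart against EGFP and 2 against Oct4-EGFP. The shares over all genes were 8.41% and 11.7%. Summed levels of the fibroblast markers were 14463 and 15422 in Nr5a2-EGFP cells, 25960 in Oct4-EGFP cells and 22839 in EGFP cells.

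The labelled cell type was checked on ES cell and trophoblast markers, trophoblast being the fate of ES cells deprived of Oct4. All 10 ES cell markers were well above background in every channel. Against Oct4-EGFP, 6 of them were lower in the Nr5a2-EGFP clone and 0 passed the threshold as higher, beside 7.11% and 4.54% of all genes. Sall4 went the other way (0.84, a lower bound since its Nr5a2-EGFP channel was saturated), with up to 3.01 at its other probes. Dppa5a and Fgf4, among the lower ones, were saturated in the Oct4-EGFP channel, and Nanog in both. Of 9 measured trophoblast markers, 8 were higher and 0 lower, beside 4.54% and 7.11% of all genes. Summed trophoblast marker levels were 91272 and 89463 in Nr5a2-EGFP cells, 25731 in Oct4-EGFP cells and 97009 in EGFP cells. Actb probe 1 and Tpm1 probe 4 had their lowest levels in the Oct4-EGFP clone, and Actg2 its highest. Over the 18 measured member probes, that clone had the lowest level in 9 and the highest in 5. It was also the clone with the lowest summed trophoblast marker level. The part of the trophoblast markers in the actin and Tpm1 ratios was not tested.

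Since SRF binds a short motif called the CArG box (CC, then 6 letters that are each A or T, then GG), the promoters of the members were searched for it. RefSeq promoter sequences on GRCm38.p6, reaching 250 bases before to 50 after the gene start, were given for 7 members, and those of Actb, Actg2 and Tagln were not given. The box is the same read on either strand. It was found in 4 of the 7, Actg1, Acta1, Actc1 and Myl9, beside 1.81% of the 27025 genes with a promoter sequence. Each is shown with the box in capitals on the strand of the gene. They lie at chr11:120348551-120348610 (minus strand), chr8:123894814-123894873 (minus), chr2:114052888-114052947 (minus) and chr2:156775278-156775337 (plus).
Actg1 promoter: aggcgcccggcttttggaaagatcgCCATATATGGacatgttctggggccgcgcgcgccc
Acta1 promoter: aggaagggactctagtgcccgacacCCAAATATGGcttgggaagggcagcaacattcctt
Actc1 promoter: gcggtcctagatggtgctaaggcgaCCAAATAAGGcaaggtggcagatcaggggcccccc
Myl9 promoter: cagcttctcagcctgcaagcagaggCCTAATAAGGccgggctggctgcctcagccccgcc

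The box starts 90 bases before the gene start in Actg1, 73 in Acta1, 47 in Actc1 and 161 in Myl9. A match is a description of the letters and no measure of binding. The 4 genes did not share one pattern across the clones: Actg1 had its lowest level at the brightest probe in the Oct4-EGFP clone (33471) and Acta1 its highest there (201), Myl9 varied within 2-fold and Actc1 was not above background.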

How the data were processed

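RNA of 3 clones was measured on 2 two-channel Agilent arrays (design 026655, 1 slide and 1 scan). Groups, dyes and direction came from the labels, with 10 µg of total RNA per channel, primed with oligo-dT. The deposited spot intensity values are the scan as read by Agilent Feature Extraction. The file headers give its version as 10.7.3.1, and the submitters' processing notes as 9.3.2.1. The software's log10 ratio of Cy5 over Cy3 is, per the file headers, background-subtracted and dye-normalized. The authors' deposited value table of log2 ratios correlated with it at r = 0.997 on each array, and its median was 0.02 on the EGFP array and 0.04 on the Oct4 array, which settles its direction but not its scale. Its centring is not given in the sources read here. Flags and pixel counts are as deposited.

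Mean spot signals were corrected by normexp (offset 50) and loess in limma 3.58.1 (R 4.3.3). Controls got no weight and were left out, as were 530 outlier-flagged spots (EGFP array) and 523 (Oct4 array). Channels were scaled by Aquantile, and 78.1% to 80.1% of spots per channel lay well above background. A gene's level is that of its brightest probe. A gene counted as measured where 1 or more channels of the comparison lay well above background. Where a channel was saturated the ratio is a bound, given as at least N-fold, and bounds are open to dye bias. Names were updated by accession through RefSeq (26055 probes, 66.1%, matched). The number of arrays limits the precision, and no test between clones was run. The steps were tested on simulated arrays.

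The members, the 11 other gene lists, the size rule and the alternatives were chosen with earlier results of these data known. The rule for naming took all member probes and all reference genes, the 3 genes per list with the largest ratio in each comparison, a few fixed relatives (such as Myh11, Tagln2 and Tpm2), and the 5 genes nearest in pattern to Actb and to Acta2. Some genes and 1 list that it took are not reported here. Alternatives were median centring, the software's ratio, no background correction, no filter on dim probes, no saturated probes, the mean over probes, the value table, the other Nr5a2-EGFP reading, Cy3 levels, and scaling to Actb or Gapdh. Scaling to Actb with the other reading or the Cy3 levels was added after seeing the data.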

Additional observations from a re-analysis of the deposited data

How the results depend on the processing

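In the comparison with EGFP, Acta2 was the 1 member at least 2-fold apart under each of the 8 alternatives that did not scale to a gene. Against Oct4-EGFP, Actg2 was lower under all 8. Actb and Tpm1 were both higher under 5 of them. The software's ratio and the value table left Actb alone, the other Nr5a2-EGFP reading left Tpm1 alone, and leaving out saturated probes added Actg1 through its probe 2. For Oct4-EGFP over EGFP, Actg2 was higher under all 7 alternatives. The Cy3 levels called Acta2 lower in place of Actb, the software's ratio added Acta1 (1.15, against 0.68), and the mean over probes added Tpm1 as lower. The ratio of Actb over EGFP moved to 0.49 with the other reading and to -0.92 when scaled to Gapdh. That over Oct4-EGFP moved to 0.61 with the other reading, and that of Oct4-EGFP over EGFP to -0.94 from the Cy3 levels and to -2.35 when scaled to Gapdh. Scaling to Actb or Gapdh shifts every gene by 1 constant per comparison. It turned the sign of several members. Scaled to Actb, Tpm1 went from 1.04 to -0.40 over Oct4-EGFP, Actg1 from 0.67 to -0.77 and Myl9 from 0.34 to -1.09. For Oct4-EGFP over EGFP, Acta2 went from -0.83 to 0.94 that way. Scaling to Actb also put Actg2 over EGFP past the threshold (1.11) and further members past it in the other comparisons. Scaling to Gapdh added Acta2 (-1.41), Actg1 (-1.38) and Tpm1 (-1.38) for Oct4-EGFP over EGFP. Of 174 values of single genes, 46 moved by more than the SD of the reading difference, 39 of them under that scaling and 7 (of Acta1 and Acta2) under others. Besides these, 1 was counted apart as reversed, that of Tpm1 over Oct4-EGFP scaled to Actb, and it too moved by more than that SD. The Actb, Acta2 and Tpm1 probe 2 ratios, and those of Actg1 probes 3 to 5, rest on which reading of the Nr5a2-EGFP clone is used, and the cause of the gap between readings was not tested. No paired analysis was possible because each group has 1 sample and no replicate numbers. Saturation limits Actg1 at its brightest probe, and signals near background limit Acta1 and Actc1.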

Other observations

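The genes whose pattern over the 4 channels lay nearest to that of Actb, among 14671 genes with an updated symbol that were well above background and not saturated in every channel, included Mrpl43, a mitochondrial ribosomal protein gene (Euclidean distance 0.18 on centred log2 levels). Bcdin3d (0.23), Uqcc3 (0.23) and Grcc10 (0.28) were near it too, and 20 genes lay within 0.5. Mrpl43 had levels of 5395 and 10754 in Nr5a2-EGFP cells, 4163 in Oct4-EGFP cells and 7526 in EGFP cells. Like Actb, its Nr5a2-EGFP reading was higher on the Oct4 array than on the EGFP array, so this likeness includes the gap between readings. Nearest to Acta2 were Arhgap30 (0.11), the cardiac myosin gene Myh6 (0.18), Dmrtc1c2 (0.30), Ednra (0.31), an endothelin receptor gene, and Bola1 (0.32). Arhgap30 had 4350 and 2333 in Nr5a2-EGFP cells, 3877 in Oct4-EGFP cells and 11471 in EGFP cells.

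Among 14 actin-related genes, Actl7a, known from the testis, had levels of 3824 and 3534 in Nr5a2-EGFP cells, 886 in Oct4-EGFP cells and 1078 in EGFP cells, with ratios of 2.00 over Oct4-EGFP and 1.83 over EGFP. Actl6a, whose product is a subunit of chromatin remodelling complexes, had 2255 and 2317 in Nr5a2-EGFP cells, 2016 in Oct4-EGFP cells and 6596 in EGFP cells, a ratio of -1.55 over EGFP and of -1.75 for Oct4-EGFP over EGFP. The others measured stayed within 2-fold. So 2 of 11 measured were at least 2-fold apart against EGFP, 1 of 12 against Oct4-EGFP and 1 of 12 for Oct4-EGFP over EGFP. The shares over all genes were 8.41%, 11.7% and 12.2%.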
